A study of Homo sapiens with 8 samples.

Results

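The genes described are ATF4 and 9 genes of the stress programmes around it: the transcription factor genes ATF3, DDIT3 and XBP1, the regulators TRIB3 and PPP1R15A, and the effectors ASNS, CHAC1, HERPUD1 and SESN2. They were chosen by name, as every peak listed under 1 of these 10 symbols, and account for 19 of 22626 peaks of N6-methyladenosine (m6A). m6A is a methyl mark on adenosines of messenger RNA, and ALKBH5 is a demethylase that removes it. The measurements come from HCT116, an established human colorectal cancer line, in 8 libraries of 4 groups with 2 libraries each: IP and input of cells with a stable ALKBH5 knockdown (shALKBH5), and IP and input of control cells (shNC). IP libraries hold poly(A) RNA fragments bound by an anti-m6A antibody, and input libraries hold fragments taken before that step. The labels name 1 hairpin, sh_AL1, and give the control genotype as WT. Nothing in them says that the replicates were separate cultures.

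The integrated stress response lowers general protein synthesis through phosphorylation of the initiation factor eIF2α, while translation of ATF4 increases because of short upstream reading frames in its leader. ATF4 then activates genes of amino acid supply, redox balance and feedback, often through composite C/EBP-ATF elements in their promoters. The unfolded protein response of the endoplasmic reticulum (ER) shares its PERK branch with this pathway and adds the IRE1 branch, which splices XBP1 mRNA, and the ATF6 branch.

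The data are 1 table of peaks with the authors' own comparison of both arms. No value of a single library was analysed, so the values below carry no replicate error and the depth behind them is unknown. Enrichment is a ratio of IP over input, the log2 fold compares shALKBH5 with shNC, and a peak is called at a false discovery rate (FDR) of 0.05 or lower for that fold. Which arm is on top of the fold is not stated, so folds are given as positive or negative only, with no reading of which arm was higher. The sources used here do not say whether the fold corrects for transcript level, so m6A and transcript level cannot be told apart in any of these values. The level of ALKBH5 was not analysed here, so the knockdown was not checked. Its own 3 peaks had log2 folds of -1.43 to -0.93 in the authors' deposited table, and 0 were called there (smallest FDR 0.33, with 0 at an unadjusted p of 0.05). Peaks were listed for 6 of 9 colorectal epithelial marker genes (CDX1, VIL1 and LGR5 had none), 1 of 6 fibroblast, 1 of 6 leukocyte and 0 of 3 endothelial markers. A peak is not a level.

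Promoter stretches are shown where they hold an element known to bind ATF4 with a C/EBP partner or the ER stress factors. The 250 bases before each RefSeq start site (GRCh38.p14, 17 windows, all 10 genes) were searched on both strands. The composite element was searched as TGATGNAA, with reverse complement TTNCATCA, the ER stress element as CCAAT and CCACG with 9 bases between them, and ER stress element II as ATTGGNCCACG. Matches are in capitals, and each run is written 5′ to 3′ on the strand of the gene.
CHAC1, composite element, chr15:40953240-40953291 (+): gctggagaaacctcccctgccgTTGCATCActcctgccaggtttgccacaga
HERPUD1, composite element, chr16:56931944-56931995 (+): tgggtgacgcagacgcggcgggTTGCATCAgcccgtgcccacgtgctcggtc
ASNS, composite element, chr7:97872447-97872498 (-): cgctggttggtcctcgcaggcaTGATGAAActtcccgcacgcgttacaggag
ATF3, composite element, chr1:212565194-212565245 (+): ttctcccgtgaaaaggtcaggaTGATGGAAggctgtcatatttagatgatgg
HERPUD1, ER stress element II, chr16:56932003-56932057 (+): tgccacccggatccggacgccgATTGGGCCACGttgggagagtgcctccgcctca
XBP1, ER stress element, chr22:28800581-28800643 (-): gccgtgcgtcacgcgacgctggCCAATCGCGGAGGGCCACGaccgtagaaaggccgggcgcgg

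These matches lie on 5 of the 10 genes, and the windows of ATF4, DDIT3, TRIB3, PPP1R15A and SESN2 held none of the 3 elements. CHAC1 and HERPUD1 held the same 8 letters, with the first base 209 and 176 bases before the start site. The ASNS match began 68 bases before the start site at 97872408, and the ATF3 match 191 bases before that of ATF3. The composite element was in 4 of the 17 windows, against 3.14% of all 35116 promoter windows. The ER stress element was in 1 of the 17, against 0.0740% of all, and element II in 1, against 0.0513%. The ASNS match (97872469 to 97872476 on chromosome 7) lies inside the bases listed as ASNS peak 1, and no other match lies inside a peak of its gene. A match is a description of these letters, not evidence of binding, and a window with no match says nothing about the factor.

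Of the 19 peaks, 8 were called (42.1%), against 8.23% of all peaks. The 6 positive calls lay on 4 genes, ATF4, ASNS, HERPUD1 and PPP1R15A (5.74% of all peaks were called positive). The 2 negative calls were on SESN2 and CHAC1 (2.49% of all peaks were called negative). No peak of ATF3, DDIT3, TRIB3 or XBP1 was called, and of their 5 peaks that of XBP1 passed an unadjusted p of 0.05, at 0.031 in the authors' deposited table. With the median log2 fold of all peaks (0.14) subtracted, 4 positive and 3 negative calls were made, with the calls of PPP1R15A and of ATF4 peak 3 lost and a negative one on HERPUD1 added.

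**Figure D1:**
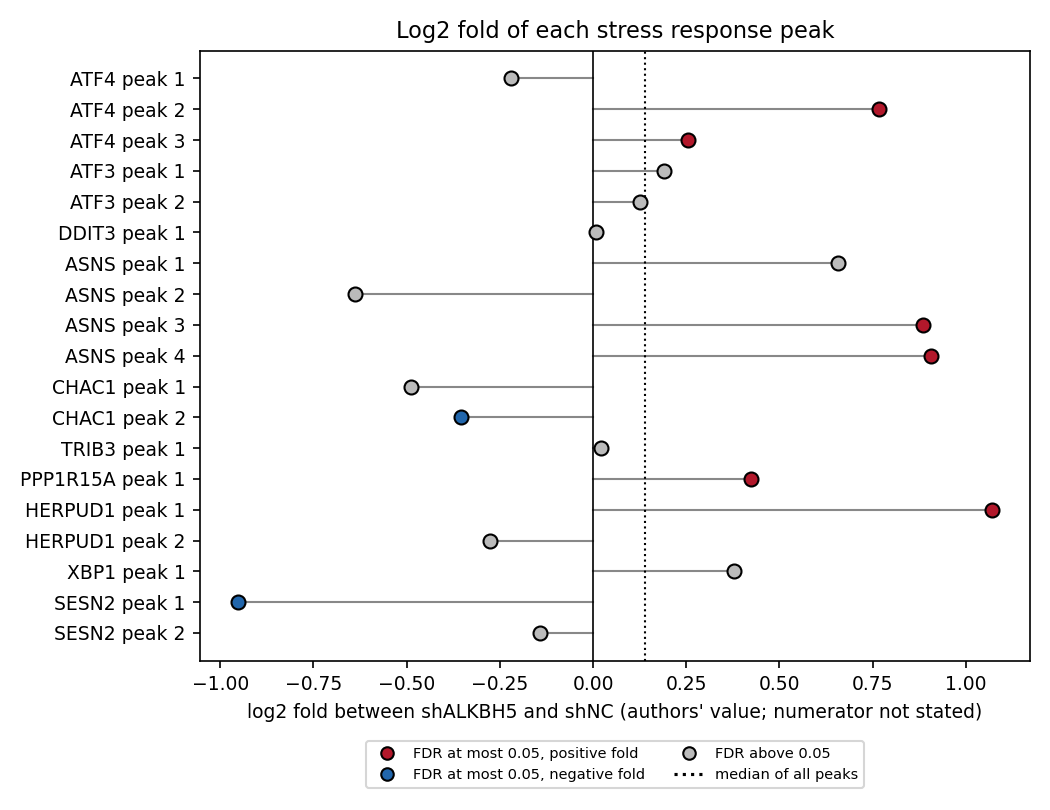
Log2 fold between the shALKBH5 and shNC arms (x axis, authors' value, numerator not stated) for each of the 19 peaks (y axis, peaks numbered 5′ to 3′ within a gene). Red and blue points have an FDR of at most 0.05, grey points do not, and the dotted line is the median of all peaks, 0.14: the 6 red points lie at 0.25 to 1.07 and the 2 blue ones at -0.95 and -0.35.

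The share called has to be read against how strongly a peak was detected. The median log10 p of the peak itself was -125 for the 19 peaks and -8.2 for all peaks in the authors' deposited table. All 10 genes had at least 1 peak with a log10 peak p of -100 or lower, 11 peaks in total, a range that holds 8.75% of all peaks. Of these 11 peaks 6 were called, against 28% of all 1980 peaks in that range. The part of peak strength in the calls was not tested. The absolute log2 folds were smaller than usual, with a median of 0.38 for the 19 peaks and 0.66 for all peaks in the authors' deposited table. Among called peaks alone these medians were 0.83 and 1.12. Folds were not compared with those of peaks of like peak p.

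**Figure D2:**
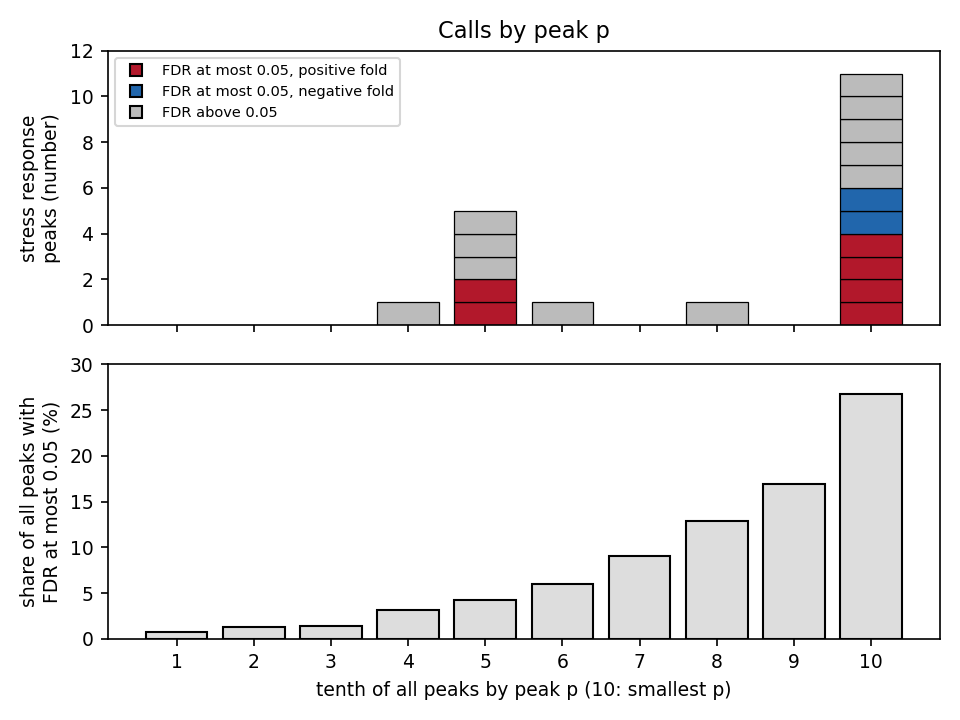
Number of stress response peaks (top, coloured by call) and percent of all peaks called at an FDR of 0.05 (bottom) in 10 equal classes of all 22626 peaks ordered by peak p, with the smallest p at the right. The rightmost class holds 11 of the 19 peaks, and 26.7% of all peaks in it were called, against 0.707% in the leftmost.

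ATF4, the transcription factor gene at the centre of the programme, lies on chromosome 22 and had 3 peaks on its plus strand. Peak 1, nearest the 5′ end (39520516 to 39520754, 239 bases) covers the annotated start and had an enrichment of 4.50 and a log2 fold of -0.22 (FDR 0.61, from the authors' deposited table). Peak 2 (39521733 to 39521971), centred 834 bases before the 3′ end, had an enrichment of 2.56 and a log2 fold of 0.77 (FDR 4.0e-20, from the authors' deposited table), a ratio of 1.70 between the arms. Peak 3 (39522178 to 39522683, 506 bases), at the 3′ end, had an enrichment of 4.98 and a log2 fold of 0.25 (FDR 4.2e-05, from the authors' deposited table). So the peaks toward the 3′ end were positive and the start peak was not called. Differences between peaks of 1 gene were not tested. The pseudogene ATF4P3 on chromosome 17 had a peak of its own with an enrichment of 2.51 and a log2 fold of 0.78 (FDR 0.0022, from the authors' deposited table). The sources used here do not say how reads shared by ATF4 and a near-identical copy were assigned, so both values are uncertain.

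ATF3 and DDIT3 encode bZIP factors induced downstream of ATF4, and neither had a called peak. For ATF3 on chromosome 1, the peak at 212618174 to 212618324 had a log2 fold of 0.19 (enrichment 2.24, FDR 0.64, from the authors' deposited table). The longer ATF3 peak at 212619311 to 212620238 stood at 0.13 (enrichment 12.3, FDR 0.56, from the authors' deposited table). DDIT3 encodes CHOP, a factor linked to death under lasting ER stress, and had 1 peak of 4 exon blocks and 1277 bases (57516588 to 57521707 on chromosome 12, minus strand). With a log10 peak p of -1050 and an enrichment of 8.08, this DDIT3 peak had a log2 fold of 0.0088 (FDR 0.66, from the authors' deposited table). It had the lowest peak p of the 19 after that of CHAC1, and the log2 fold nearest to 0. The DDIT3 value is uncertain, since its peak shares bases with a plus-strand peak of MARS1, the methionyl-tRNA synthetase gene, at 57516193 to 57517569. That MARS1 peak stood at 0.93 (FDR 2.5e-09, from the authors' deposited table). The sources used here do not say whether counting used strand. The DDIT3 peak also shares bases with a peak of an unnamed gene model on its own strand, at 57517712 to 57520480. That peak stood at 1.18 (FDR 0.59, from the authors' deposited table), and strand would not separate it from DDIT3.

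XBP1, spliced by IRE1 to give an activator of ER folding and degradation genes, had 1 peak of 2 blocks and 750 bases (28795035 to 28796098 on chromosome 22, minus strand). Its log2 fold was 0.38 in the authors' deposited table, with an enrichment of 10.4 and an FDR of 0.19.

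Of the feedback regulators, PPP1R15A was called and TRIB3 was not. PPP1R15A encodes GADD34, which brings a phosphatase to eIF2α and so restores translation. Its single peak (48873291 to 48874838 on chromosome 19) is the longest of the 19, at 1548 bases in 1 block, and ranks 261 by length among all peaks. Its log2 fold was 0.42 (enrichment 14.1, FDR 0.027, from the authors' deposited table). That call did not pass at an FDR of 0.01, with p doubled (FDR 0.054) or with folds recentred (FDR 0.17). TRIB3, a pseudokinase that restrains ATF4 and CHOP activity, had 1 peak of 1108 bases (396422 to 397529 on chromosome 20). This TRIB3 peak had the highest enrichment of the 19, 18.9, and a log2 fold of 0.022 (FDR 0.64, from the authors' deposited table).

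ASNS, which makes asparagine and is a standard ATF4 target, had 4 peaks on the minus strand of chromosome 7. Peaks 1 and 2, at 97872148 to 97872542 and 97871790 to 97872029, had log2 folds of 0.66 (FDR 0.50) and -0.64 (FDR 0.14, from the authors' deposited table). Peak 3 (97869076 to 97869848, 2 blocks, 180 bases) stood at 0.88 (enrichment 1.51, FDR 3.9e-09, from the authors' deposited table). Peak 4 (97852095 to 97852393), centred 567 bases before the 3′ end, stood at 0.91 (enrichment 4.26, FDR 3.2e-19, from the authors' deposited table). The called ASNS peaks were therefore nearly equal in fold, although 17489 and 567 bases from the 3′ end. An unnamed transcript on the same strand has peaks that share bases with ASNS peaks 1, 3 and 4. Its overlapping peaks stood at 0.83 (FDR 2.4e-08) and 0.92 (FDR 4.0e-21, from the authors' deposited table), and such pairs list the same locus again.

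CHAC1, which degrades glutathione and is induced by ATF4, had negative folds at both of its peaks on chromosome 15. The start peak (40953437 to 40953586, 150 bases) had a log2 fold of -0.49 (enrichment 2.15, FDR 0.49, from the authors' deposited table). The second CHAC1 peak (40955383 to 40956482, 1100 bases, enrichment 14.1) had a log2 fold of -0.35 (FDR 1.2e-05, from the authors' deposited table), a ratio of 0.782. Its log10 peak p of -1410 is the lowest of the 19 peaks.

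HERPUD1 encodes a membrane protein of ER-associated degradation, and its peaks on chromosome 16 had folds of opposite sign. The first (56940115 to 56942029, 2 blocks, 150 bases) had the largest positive log2 fold of the 19, 1.07 (FDR 0.0081, from the authors' deposited table), a ratio of 2.10. That peak was weakly enriched, at 1.67, which is at the 1.0 percentile of all peaks. The second HERPUD1 peak (56942179 to 56943606, 540 bases, enrichment 12) stood at -0.28 (FDR 0.14, from the authors' deposited table). It was called negative once folds were recentred (FDR 0.016).

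SESN2, a stress-induced inhibitor of mTORC1 signalling, had the largest negative fold. The SESN2 peak at 28279197 to 28281238 on chromosome 1 (2 blocks, 568 bases, enrichment 6.52) had a log2 fold of -0.95 (FDR 3.7e-06, from the authors' deposited table), a ratio of 0.517. The other SESN2 peak (28282043 to 28282461) lies at the 3′ end and had a log2 fold of -0.14 (enrichment 3.24, FDR 0.63, from the authors' deposited table).

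**Figure D3:**
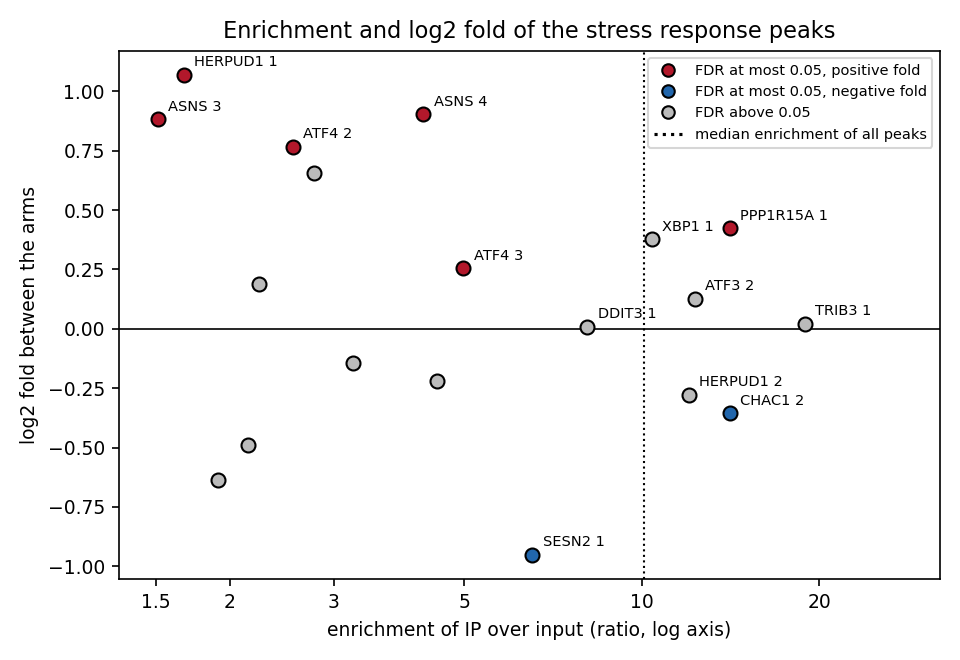
Enrichment of IP over input (x axis, ratio, log axis) against the log2 fold between the arms (y axis) for the 19 peaks, coloured by call; called peaks and those with an enrichment over 8 carry the gene and peak number. The dotted line is the median enrichment of all peaks, 10.1; 3 of the 6 positive calls have an enrichment of 1.51 to 2.56.

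Weak enrichment was common among these peaks. Their median enrichment was 4.50, against 10.1 for all peaks, and 7 of the 19 were under 3, against 10.5% of all peaks. The 3 calls among those 7 peaks were ATF4 peak 2, ASNS peak 3 and HERPUD1 peak 1, all positive. Across the 19 peaks, enrichment and log2 fold had a Spearman rho of -0.25, and across all peaks of -0.06; peaks of 1 gene share their transcript, and these are descriptions. Taking the most enriched peak of each gene, log2 folds ran from -0.95 (SESN2) to 0.91 (ASNS) with a median of 0.07 in the authors' deposited table. Of these 10 peaks 5 were called, against 8 of the 19 and 8.23% of all peaks.

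The peaks were longer than usual, with a median exonic length of 419 bases, against 300 for all peaks. A single block held 12 of them, and 7 spanned more than 1 block, against 30.4% of all peaks. Of the 19, 8 peaks on 7 genes were centred within 1000 bases of the annotated 3′ end, against 22.1% of 20400 peaks that could be placed. Of those 8, 4 were called: both later ATF4 peaks and the last ASNS and CHAC1 peaks. By comparison, 8 of all 19 peaks were called, and 8.23% of all peaks. The share called among all peaks within 1000 bases of the 3′ end was not counted. Within 500 bases the counts were 2 of 19 and 12.5%.

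**Figure D4:**
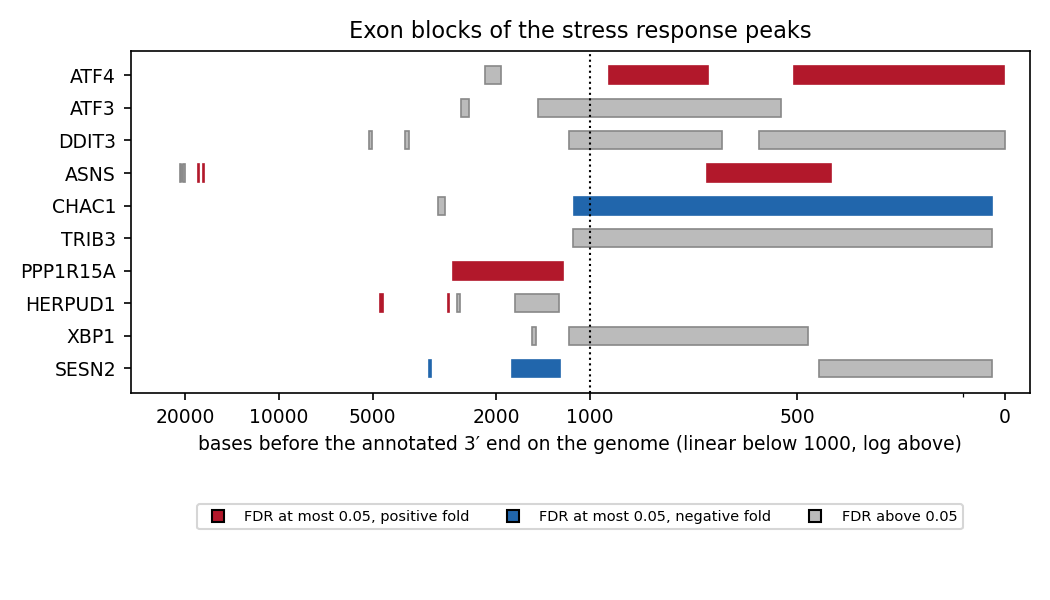
Exon blocks of each peak as distance before the annotated 3′ end of the gene on the genome (x axis in bases, linear below 1000 and log above, 3′ end at the right), 1 row per gene, coloured by call. Called ATF4 and CHAC1 blocks reach close to the 3′ end, and so do uncalled blocks of DDIT3, TRIB3 and SESN2. ATF4, ASNS and CHAC1 also have uncalled blocks at the far left of their rows.

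Some peaks also reached transcript starts. A peak of ATF4, DDIT3, ASNS and CHAC1 shares bases with the window around its RefSeq start site, and none of these 4 peaks was called, with unadjusted p-values of 0.19 to 0.46 in the authors' deposited table. The DDIT3 peak has 53 of its 1277 bases there and is centred 726 bases before the 3′ end. Its block at 57521609 to 57521707 (99 bases) lies upstream of the annotated DDIT3 gene, which begins at 57520517. How many of all peaks reach such a window, and how many of those were called, was not counted. In ATF4, 93 peak bases fall in the window of the first start site, and in CHAC1 84. The m6A consensus DRACH (A, G or T, then A or G, then A, C and a base other than G) was searched there on the transcript strand, since the rest of each peak could not be read without a genome. It had 0 matches in both, 1 in the 53 bases of DDIT3 and 3 in the 184 bases of ASNS, where all promoter windows average 1.52 per 100 bases. The DDIT3 site and the 1 ASNS site downstream of the start at 97872408 are shown, with the consensus in capitals. The A of the ASNS site is base 43, with that start as base 1, and the other 2 ASNS matches lie before this start. The annotated ASNS gene begins further upstream, at 97928441, so those 2 matches lie within the annotated gene.
DDIT3, chr12:57520494-57520520 (-): cccgaggtcagAGACTtaagtctaagg
ASNS, chr7:97872359-97872379 (-): ccacatcacccTGACCtgctt

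The wider pathway was followed through 7 lists of 128 other genes, of which 109 had 219 peaks. Of these 219 peaks, 31 were called positive and 17 negative (21.9%), against 8.23% of all peaks (5.74% positive and 2.49% negative). With folds recentred, these were 20 positive and 24 negative. The median log10 peak p of the lists ran from -47.7 to -9.21, against -8.2 for all peaks, and its part in the calls was not tested. Some called list peaks named below had an enrichment under 3. They were on PPP1R15B (2.98, the peak at -1.23), EIF2S3 (2.29), GCN1 (2.6), AARS1 (1.39), SQSTM1 (2.26), EIF4EBP1 (2.63) and CANX (2.08, the peak at 1.24). None of the 128 genes is among the 10 above, and like them they were chosen with earlier results known.

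Upstream, a list of 19 genes held the eIF2 kinases, eIF2, its exchange factor and linked genes such as PPP1R15B, GCN1, DNAJC3 and OMA1. Peaks were listed for 17 of these genes, 32 peaks in total, with a median log2 fold of 0.26. Of these peaks, 2 were called positive and 2 negative (12.5%, near the share of all peaks). The calls lay on PPP1R15B, EIF2S3 and GCN1, and no kinase gene had a called peak. PPP1R15B, the constitutive counterpart of PPP1R15A, was called at -1.23 (FDR 7.4e-08) and at 0.35 (FDR 0.048) on different peaks in the authors' deposited table. Another PPP1R15B peak, at 1.16, was not called (FDR 0.087, from the authors' deposited table). EIF2S3, the γ subunit of eIF2, stood at 1.40 (FDR 1.7e-06) and GCN1, which helps activate the amino acid sensor GCN2, at -2.18 (FDR 0.0027, from the authors' deposited table). Among the ER stress sensors and their processing enzymes, 0 of 12 peaks on 7 of 9 genes were called (2 at an unadjusted p of 0.05). The smallest p was that of ERN1, which encodes IRE1, at -2.21 (FDR 0.14, from the authors' deposited table).

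The bZIP partners and other factors had 1 positive and 6 negative calls (17.5%) among 40 peaks on 19 of 20 genes, with a median log2 fold of -0.03. The AP-1 genes JUND, JUN, JUNB and FOS carried all 6 negative calls. JUND stood at -0.45 (FDR 5.2e-07) and -0.46 (FDR 5.6e-06) at overlapping peaks in the authors' deposited table. That pair lists the same locus again within the 6 calls. JUN stood at -0.91 (FDR 2.0e-05), JUNB at -0.29 (FDR 0.00019) and FOS at -1.06 (FDR 0.0019, from the authors' deposited table). The positive call was also on JUN, at 0.71 (FDR 0.037, from the authors' deposited table), and is named after its values were seen. It was lost at an FDR of 0.01, with p doubled and with folds recentred.

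Amino acid enzymes and transporters had the highest share of calls of the 7 lists, 48.1% of 27 peaks on 13 of 20 genes, against 8.23% of all peaks. As deposited, 8 were positive and 5 negative, with a median log2 fold of 0.20, but with folds recentred 6 were positive and 7 negative. The serine synthesis genes PHGDH and PSAT1 stood at 1.37 (FDR 2.0e-05) and 0.95 (FDR 1.5e-09, from the authors' deposited table). The transporter genes SLC7A5 and SLC1A5 stood at -0.44 (FDR 2.0e-17) and -0.58 (FDR 1.4e-06), and the transaminase gene GPT2 at -1.13 (FDR 0.00083, from the authors' deposited table). SLC1A5 also carried a called peak of the other sign, at 0.79 (FDR 0.0049, from the authors' deposited table), which is named after its values were seen.

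The tRNA synthetase genes and XPOT had 6 positive and 0 negative calls (21.4%) among 28 peaks on 13 of 14 genes. The median log2 fold was 0.67, against 0.14 for all peaks, and 25 of the 28 were above 0, against 55.3% of all peaks. At an unadjusted p of 0.05 there were 10 positive peaks and 1 negative, against 19.9% of all peaks for both signs together. SARS1 stood at 0.81 (FDR 2.5e-13) and 0.74 (FDR 6.5e-07), AARS1 at 0.87 (FDR 5.8e-07) and YARS1 at 0.32 (FDR 0.038, from the authors' deposited table), beside MARS1, given above with DDIT3. The most enriched AARS1 peak (12.2), named after its values were seen, stood at 0.11 and was not called (FDR 0.30, from the authors' deposited table). With p doubled or folds recentred, 4 positive calls were made.

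Other targets of ATF4 and CHOP had 5 positive and 2 negative calls (20%) among 35 peaks on 17 of 20 genes. With folds recentred these were 3 positive and 4 negative, and at an FDR of 0.01 there were 2 of each sign. The death receptor gene TNFRSF10B stood at 0.90 (FDR 1.3e-15), the autophagy receptor gene SQSTM1 at 0.84 (FDR 3.9e-10) and KLHL24 at 2.69 (FDR 0.016, from the authors' deposited table). STC2 stood at -2.36 (FDR 0.0014) and EIF4EBP1, a repressor of cap-dependent translation, at -0.52 (FDR 0.0020, from the authors' deposited table). Their median log2 fold was 0.21.

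ER chaperone, folding and degradation genes had 9 positive and 2 negative calls (23.9%) among 46 peaks on 24 of 28 genes, with a median log2 fold of 0.27. With folds recentred these were 6 positive and 4 negative, and at an FDR of 0.01 4 positive and 2 negative. The lectin chaperone gene CANX stood at 1.24 (FDR 1.2e-10) and 0.98 (FDR 0.00032), and HSP90B1 at 0.76 (FDR 4.0e-06, from the authors' deposited table). SEC61A1, the translocon channel gene, stood at 0.59 (FDR 2.6e-05) and WFS1 at -1.11 (FDR 2.8e-05, from the authors' deposited table).

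**Figure D5:**
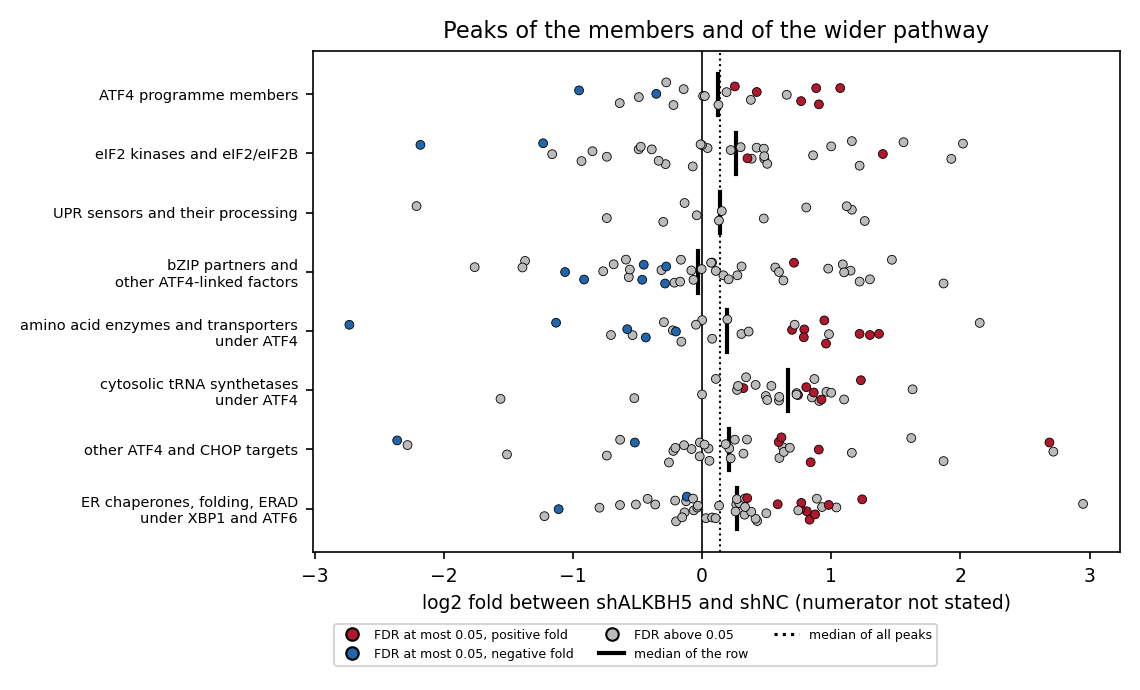
Log2 fold between the arms (x axis) of every peak of the 10 genes (top row) and of the 7 pathway lists (other rows), 1 point per peak, coloured by call; thick bars are row medians and the dotted line the median of all peaks, 0.14. Row medians run from -0.03 for bZIP partners to 0.67 for tRNA synthetases, with 0.13 for the 10 genes.

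The call rule sets how many peaks count. Of all peaks, 4.99% passed at an FDR of 0.01, 19.9% at an unadjusted p of 0.05, 6.36% with p doubled and 7.78% with folds recentred, where the 10 genes had 7, 11, 7 and 7 peaks.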

How the data were processed

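Members and lists were chosen with earlier results of these data known. Per the submitters' processing notes, BWA 0.7.12, HOMER 4.9.1 and GRCh38 were used, with no role given; the sources used here do not name the program that called and compared peaks. The authors deposited 1 peak list for the series: the p-value of each peak, log10 p and FDR scores, a linear fold enrichment ratio, and a log2 fold between arms with log10 p and FDR scores, per the file headers. Its coordinates were turned to 1-based. Antibody, fragment size and sequencer each appear in differing forms in the labels. Whether replicate spread entered the authors' p is not stated.

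Values were used as deposited, and no test across libraries could be run. Named genes were all 19 member peaks and, per list, the 5 called peaks with the smallest FDR, or fewer plus the uncalled peak with the smallest p. Alternatives doubled p or subtracted the median log2 fold of 0.14. Whether the deposited p is one-sided is not known here. Its largest value is 0.773, above the 0.5 that a one-sided p from a continuous test in the direction of its fold can reach. For DDIT3 (log2 fold 0.0088) and TRIB3 (0.022), the member folds nearest to 0, the deposited p was 0.46 and 0.41. These values do not settle the matter, and for the subtraction p was read as one-sided. A standard error came from fold and p where p was under 0.3, and otherwise from a regression on peak p, enrichment and length. The recentred p cannot exceed 0.5, so recentred FDRs are not on the same scale as the deposited ones. Both alternatives were adjusted again by Benjamini-Hochberg over 22626 peaks, with code tested on simulated data with one-sided p. Positions use the RefSeq gene table of GRCh38.p14 by symbol; a peak's centre is its middle exonic base. Python 3.11.15, pandas 2.3.3 and SciPy 1.17.1 were used.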

Additional observations from a re-analysis of the deposited data

How the results depend on the processing

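For the 10 genes, the 6 positive calls ranged from 4 to 7 over 8 alternatives, and the 2 negative ones from 2 to 4, with 4 at an unadjusted p of 0.05. At an FDR of 0.01 the pathway lists held 17 positive calls, and with folds recentred 20, against 31 as deposited. Peaks centred within 500 bases of the 3′ end numbered 2, against 8 within 1000 bases. No single peak changed sign together with a call. The call of PPP1R15A was lost in 3 alternatives (FDR 0.01, p doubled, folds recentred) and that of ATF4 peak 3 with folds recentred, where HERPUD1 peak 2 was gained; causes were not tested. Leaving out peaks that overlap another gene's peak removed both ASNS calls, and requiring an enrichment of at least 2 removed the calls of ASNS peak 3 and HERPUD1 peak 1. No paired analysis was possible because the table holds no values per library; for the same reason replicates could not be left out. Motif counts over whole peaks were not run, since no genome was used. Without read counts, the precision of each fold is unknown.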

Other observations

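Paralogues of these genes, chosen after their values were seen, carried calls of both signs. Of 21 peaks on SESN1, SESN3, TRIB1, TRIB2, CHAC2, HERPUD2 and PPP1R15B, 4 were called positive and 2 negative (28.6%), against 8.23% of all peaks. These 6 calls lay on TRIB1 (3), PPP1R15B (2) and HERPUD2 (1) only. The share leaves out the other ATF genes given below, which had 0 calls, and would be lower with them. TRIB1, a pseudokinase related to TRIB3, had 3 called peaks of 5, at 0.92 (FDR 7.9e-17), 1.22 (FDR 0.0028) and 0.19 (FDR 0.0044, from the authors' deposited table), whereas the single TRIB3 peak stood at 0.022. TRIB2 had 4 peaks and 0 calls, with a smallest FDR of 0.46 in the authors' deposited table. HERPUD2 had 1 called peak of 3, at -2.19 (FDR 0.0038, from the authors' deposited table), against 1.07 for the called peak of HERPUD1. CHAC2 had 1 peak at 2.22 (FDR 0.056, from the authors' deposited table), which was not called. SESN1 and SESN3 had 2 peaks each, with a smallest FDR of 0.55 among the 4 in the authors' deposited table. Of the other ATF genes, ATF1, ATF2, ATF5, ATF6 and ATF7 had 1, 1, 3, 3 and 2 peaks, with 0.32, for ATF7, as the smallest FDR in the authors' deposited table. Differences between paralogues were not tested.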
